A study of Drosophila melanogaster with 2 samples.

Results

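The gene sbb (scribbler, also called brakeless; FBgn0285917) encodes a nuclear co-repressor, and was chosen by its number of binding summits for pan, which ranked 3 among 13968 protein-coding genes. The gene lies on the minus strand of arm 2R from 18278198 to 18357296 (dm6). Every peak was taken whose summit lay between 2 kb before and 2 kb beyond the gene, a stretch of 83.1 kb that is called its territory below. It held 17 of the 6366 peaks in the authors' pooled conservative list. Because the number of summits chose the gene, the counts and levels below describe it and were not tested.

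A co-repressor is brought to DNA by a DNA-binding protein and lowers the transcription of genes nearby. The sbb protein is known to act with the nuclear receptor Tailless and with Atrophin in the embryo. It is also known from photoreceptor axons that overshoot their target layer and from altered larval foraging when the gene is lost. In the wing disc it is known to hold down the gene of the BMP receptor Thickveins. The protein whose binding was measured, pan, is the fly TCF, the factor through which Wingless (Wnt) signalling reaches DNA, and it works with the co-repressor Groucho where the signal is off.

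The material was whole embryos of 0 to 24 h from transgenic flies of the pan-GFP strain, which express pan fused to eGFP. Chromatin was precipitated with an antibody against GFP and sequenced, in 1 group of 2 biological replicates that the labels take from separate biosamples of the same strain. The labels describe the strain as carrying an insertion aimed at pan. The promoter that drives the fusion, and whether untagged pan remains, are not given in the sources used here. Whole embryos of this age range mix all tissues and stages, so a peak has no cell type. The control libraries named in the labels were not used here, so whether a peak is specific to pan was not tested. The authors deposited ranked peak lists and shorter passing lists, cut at a threshold on IDR, the irreproducible discovery rate. A low IDR, and so a high −log10 IDR, means that a peak kept its rank well between 2 sets of reads. Each peak carried a signal in the authors' units, whose scale is not given, so signals are compared within 1 list only. Read depth is unknown from these files.

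The annotation gave sbb 7 transcripts from 2 transcription start sites (TSS). The distal TSS at 18357296 served 5 transcripts. The proximal TSS at 18288761, which lay 68.5 kb further along the gene, served 2. At the other end 3 transcripts stopped at 18285124, and 4 ran further, to 18278198 at most, through further exons. The longest intron, of 65.6 kb from 18289851 to 18355499, was uninterrupted in 4 transcripts. It ran from the first exons to an exon at 18289535 to 18289850, which lies upstream of the proximal TSS. The transcript sbb-RD places 1 additional small exon in it. All but 1 of the 8 genes nested in sbb were on the opposite strand to it. They were CG14502, CG18536, CG18537, CG18538, CG18539, CG18540, Tango8 and, on the same strand as sbb, CG14505. The territory also took in pen-2, which encodes a subunit of gamma-secretase and overlaps the end of sbb, part of Ote, which encodes a protein of the inner nuclear membrane, and part of an annotated jockey retrotransposon upstream.

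The count was similar in the other lists. The longer pooled list had 17 summits in the territory. Replicate 1 alone had 13 in its passing list and replicate 2 alone had 17. Per 10 kb the conservative list had 2.05 summits in sbb, 0.45 on the whole of arm 2R and 0.462 on the main arms together, so that sbb stood at 4.55 times the arm. The ratio was 4.01 in the longer pooled list, 4.98 in replicate 1 and 5.04 in replicate 2. In the pooled ranked list, which is not thresholded, sbb held 120 peaks, or 14.4 per 10 kb against 9.05 on the arm, a ratio of 1.6.

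Among protein-coding genes 39.7% had at least 1 conservative summit in their territory, as had 71.9% of the 448 genes 0.5 to 2 times as long as sbb. As many summits as sbb occurred in 0.446% of those 448, which is sbb itself and CG1677 with 22. The median of the 448 was 2 summits. Over all ranked peaks sbb was less far from the others. It was number 38 of the 448, with 120 ranked peaks against a median of 63, or 14.4 per 10 kb against a median of 10.4.

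**Figure D1:**
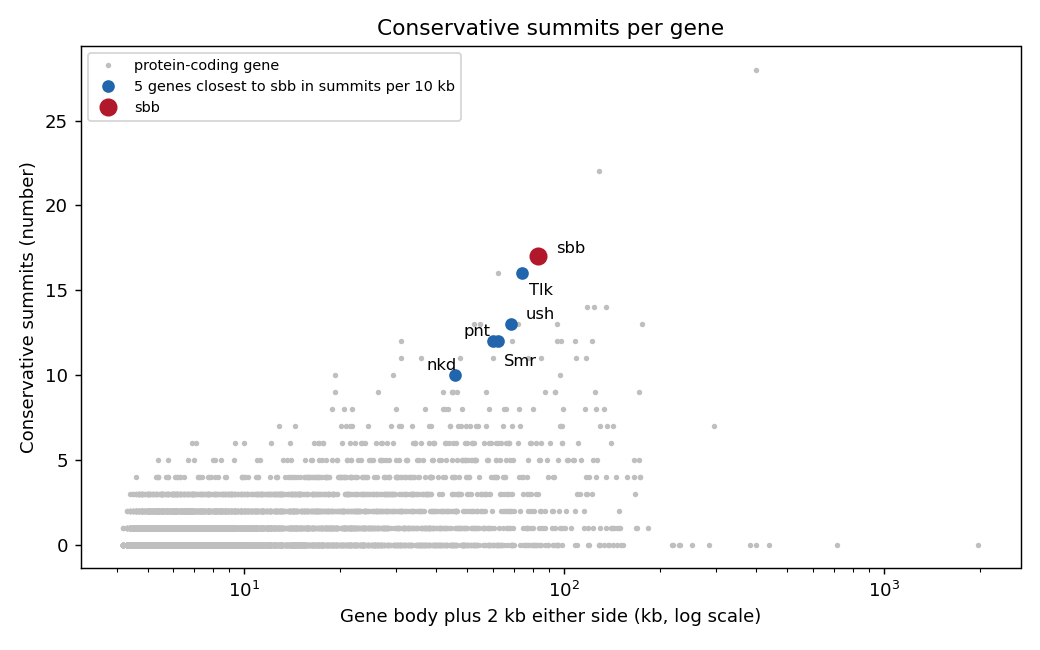
Conservative summits (vertical axis, number) against the length of the gene with 2 kb on either side (horizontal axis, kb, log scale) for all protein-coding genes in grey. The point for sbb is at 83.1 kb and 17 summits, with Tlk at 16 and 4 other genes of like density at 10 to 13.

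Along the gene the 17 peaks fell into 4 stretches, numbered here from upstream of the distal TSS in the direction of transcription. Peaks 1 to 3 lay at the distal promoter and just inside the gene. Peaks 4 to 11 lay in the upstream part of the long intron, 12.8 to 30.6 kb from the distal TSS. Peaks 12 and 13 lay further down the same intron, and peaks 14 to 17 lay among the nested genes and at the proximal TSS. The stretches were drawn after the positions were seen. Gaps between neighbouring summits ran from 0.22 to 19.1 kb with a median of 2.84 kb, and the widest gap separated peak 11 from peak 12.

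**Figure D2:**
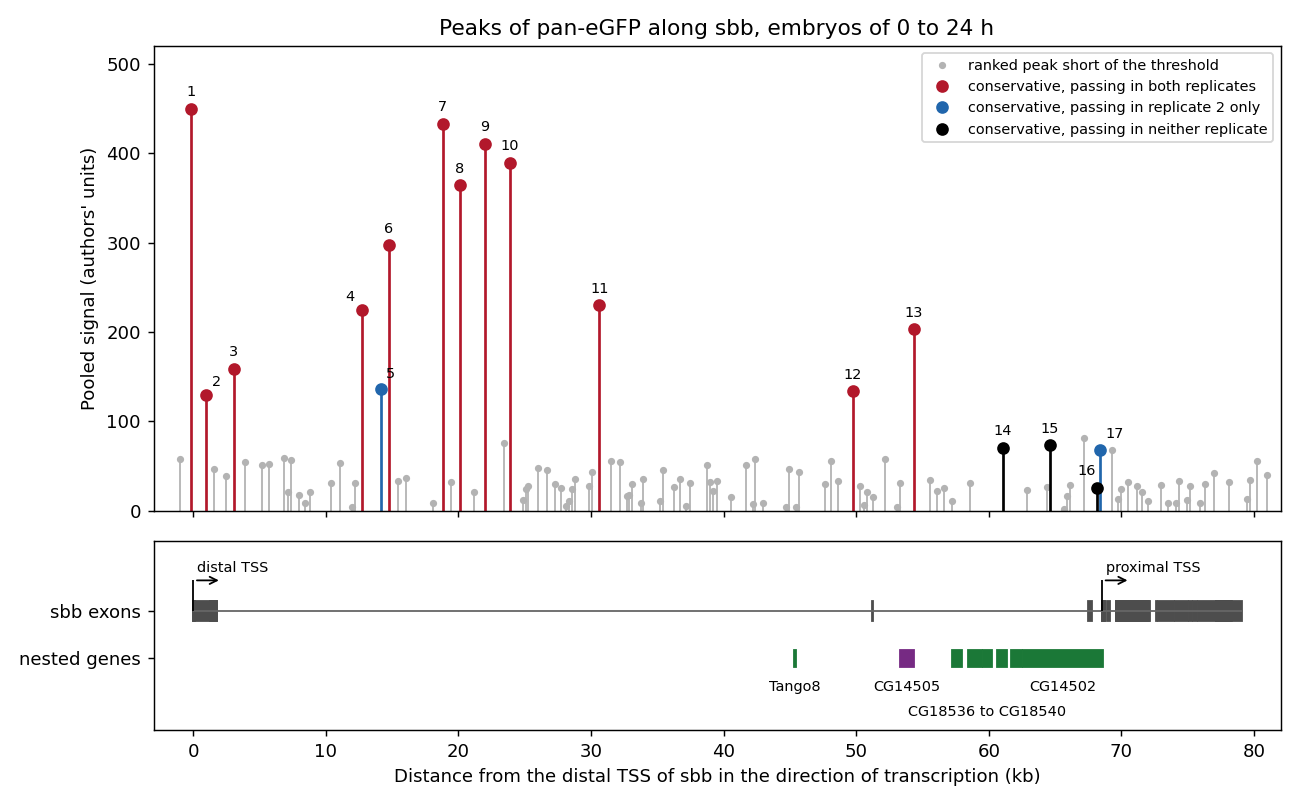
Pooled signal of each peak (vertical axis, authors' units) by distance from the distal TSS in the direction of transcription (horizontal axis, kb), with conservative peaks numbered and coloured by replicate support and the 103 ranked peaks short of the threshold in grey. The lower panel shows the exons of sbb, its 2 start sites and the nested genes, green on the plus strand and purple on the minus strand. The 6 tallest peaks are at the distal TSS and in the upstream part of the intron, while the 4 conservative peaks at the right end reach 73.3 at most.

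The strongest peak of the gene was at the distal promoter. Peak 1, from 18357333 to 18357541, had its summit 147 bp upstream of the distal TSS. It reached 221.3 in replicate 1, 222.4 in replicate 2 and 449.8 in the pooled list, where it ranked 387. It was the highest sbb peak in replicate 2 and in the pooled list, and the second highest in replicate 1. Peak 2 lay 938 bp inside the gene, in a noncoding exon of 4 transcripts. In 1 other transcript the part of that exon with the summit is spliced out and both ends are kept. It was weaker, with 56.6 in replicate 1 and 69.7 in replicate 2. Peak 3 lay 3061 bp from the distal TSS in the intron and had 66.9 and 86.9. All 3 peaks were in the passing list of each replicate.

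The upstream part of the intron held 8 peaks in 17.9 kb, and 7 of the 9 sbb peaks at or above the list's upper quartile of 195.2 were among them. Peak 7, at 18338498 and 18.8 kb from the distal TSS, reached 237.9 in replicate 1, 187.1 in replicate 2 and 432.8 in the pooled list. Peak 9, at 22 kb, had 197.6 and 219.6. Peak 10, at 23.9 kb, had 204.7 and 188.8. These were close to peak 1 in both replicates, and peak 7 exceeded it in replicate 1 but not in replicate 2. Peak 8, at 20.1 kb, had 150.6 in replicate 1 and 207.3 in replicate 2. Peak 6, at 14.7 kb, had 149.8 and 130.4. Peak 4, at 12.8 kb, had 126.2 and 93.9. Within the stretch, peak 7 was the highest in replicate 1 and peak 9 in replicate 2, where peak 7 came after peaks 8, 9 and 10. Peak 11, at 30.6 kb, had 93.7 in replicate 1 and 141.9 in replicate 2.

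Peak 5 was the exception in replicate support. Its summit lay 553 bp from that of peak 6, with 94.8 in replicate 2, where it passed, and 56 in replicate 1, where it was ranked but did not pass. Its −log10 global IDR in replicate 1 was 1.49, against 3.88 in replicate 2. The lowest −log10 global IDR among all conservative peaks of the pooled list was 2, an IDR of 0.00999. Over the 8 peaks of the stretch the median pooled signal was 330.4, with a range of 136.7 to 432.8. The other 855 conservative summits in introns and more than 5 kb from any TSS had a median of 108.2, with quartiles of 82.5 and 158.9. The distance from these 8 summits to the nearest annotated TSS of any gene was 12754 to 22006 bp.

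Further down the intron 2 peaks passed in both replicates. Peak 12, at 49.7 kb from the distal TSS, had 68 in replicate 1 and 65.3 in replicate 2. Peak 13, at 54.4 kb, lay just past the end of CG14505 and 1041 bp from its TSS, and had 109.5 and 101.6. The pooled signals were 133.8 and 203.1. Peak 13 was above peak 5 of the upstream stretch in every list, and peak 12 was below peak 5 in the pooled list and in replicate 2. No conservative summit lay within 1 kb of the TSS of CG14505 or of Tango8, for which the nearest summit was 4263 bp away.

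At the proximal TSS and in the nested genes the peaks were weak. Peaks 14 to 17 had pooled signals of 25.6 to 73.3, which exceeded the signal of 3.69 to 12.4% of the conservative list. None of the 4 passed in replicate 1, and only peak 17 passed in replicate 2. Peak 14 lay 323 bp from the TSS of CG18537, with 35.2 in replicate 1 and 39.5 in replicate 2. Peak 15 lay in an exon of CG14502, 340 bp from an internal TSS of that gene, with 32.1 and 40.3. Their −log10 global IDR was 0.26 and 0.1 in replicate 1 and 1.18 and 0.92 in replicate 2, while the pooled list had 2.27 and 2.15. Both peaks were thus in the conservative list without passing in either replicate.

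Peaks 16 and 17 overlapped each other beside the proximal TSS. Peak 17 had its summit 141 bp upstream of that TSS, and peak 16 was 361 bp upstream of it and 98 bp from a TSS of CG14502. The gene CG14502 runs the other way, and its first TSS lay 65 bp inside sbb from the proximal TSS, so a summit here cannot be given to either gene alone. Peak 16 matched a ranked peak of replicate 1, with 34.4, and none of replicate 2. Peak 17 matched a peak of replicate 2, with 45.1, and none of replicate 1. The pooled signals were 25.6 and 67.6. Compared with the distal promoter, where peak 1 passed in both replicates at 221.3 and 222.4, the proximal promoter had 1 conservative peak that passed in a replicate, at 45.1.

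**Figure D3:**
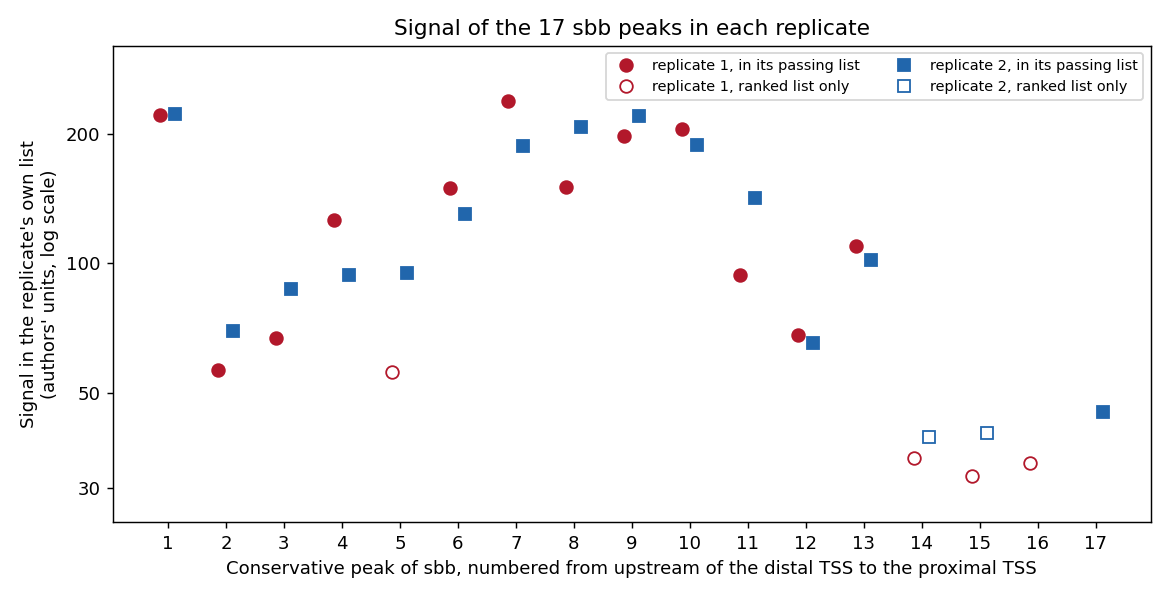
Signal of each conservative sbb peak in the replicates' own lists (vertical axis, authors' units, log scale), by peak number (horizontal axis), with circles for replicate 1 and squares for replicate 2. Filled symbols are in the passing list of that replicate and open symbols only in its ranked list. Peaks 1 and 7 to 10 lie between 150.6 and 237.9 in both replicates, peaks 14 to 17 lie between 32.1 and 45.1, and a missing symbol means that no ranked peak overlapped.

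In all, 12 of the 17 peaks (70.6%, exact 95% binomial interval 44 to 89.7%) overlapped a passing peak of both replicates by 50% or more of the shorter peak, against 53% of all 6359 conservative peaks on the main arms and 44.4% of the 855 other deep intronic peaks. Only replicate 2 had 2 of the 17 (11.8%, against 15.9% of all conservative peaks). In neither were 3 (17.6%, against 20.9%), and only replicate 1 had 0, against 10.2%. For the share in both replicates, 53% and 44.4% lie within the interval for sbb, so 17 peaks do not set sbb apart from them. The interval covers counting error alone, and neighbouring peaks of 1 gene are not independent. Over the 15 peaks with a ranked peak in both replicates the signals had a Spearman rho of 0.871, which is a description across peaks that share their libraries.

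Most sbb summits were away from promoters. Within 1 kb of any annotated TSS lay 6 of 17 (35.3%, exact 95% binomial interval 14.2 to 61.7%), and 4 of the 6 were near a TSS of sbb itself. The share over all conservative summits was 54%, which lies within that interval. With a window of 250 bp the sbb share was 17.6%, and in the passing list of replicate 2 alone it was 17.6% with the 1 kb window. Introns more than 1 kb from a TSS held 11 of the 17 (64.7%, interval 38.3 to 85.8%), against 32.2% of the whole list. Of the 17, 8 were intronic and more than 5 kb from a TSS (47.1%, interval 23 to 72.2%), against 13.6%. The list shares lie below both intervals, which cover counting error alone and were not used as a test. A long gene has more room for such positions, and neither share was compared with other long genes. Exons of any gene held 4 of the 17 (23.5%, interval 6.81 to 49.9%), against 15% of the whole list. Peak 2 was in an exon of sbb and peaks 15 to 17 were in exons of CG14502. None of the conservative summits was in a coding exon of sbb, where 15 ranked peaks fell short of the threshold with signals of at most 42.8.

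Most sbb peaks, 13 of 17 (76.5%), were at or above the median signal of the list, while peaks 14 to 17 exceeded at most 12.4% of it. The median pooled signal of all 17 was 203.1, against 120 for all conservative peaks. Of the 17, 9 (52.9%, interval 27.8 to 77%) were at or above the upper quartile of the list. The share of the list there is 25%, which lies below that interval. By width, 8 of 17 (47.1%, interval 23 to 72.2%) were narrower than 340 bp, the commonest width in the list, against 23% of the list. These were peak 1 and 7 of the 8 peaks in the upstream part of the intron, all but peak 11. Peaks 2, 3 and 11 to 17 had the width of 340 bp.

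The ranked list was filled more evenly than the passing list. By bins of 10 kb from the distal TSS, ranked peaks numbered 12 to 19, while conservative peaks numbered 2, 4, 3, 1, 1, 1, 4 and 0. The bin from 30 to 40 kb had the most ranked peaks, 19, of which 1 passed. The last bin, of 9099 bp, holds most of the coding exons and had 15 ranked peaks and none that passed, with a signal of at most 42.8. Its GC content was 51.8%, against 38.8 to 40.9% in the other bins. The part of GC content in this difference was not tested.

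**Figure D4:**
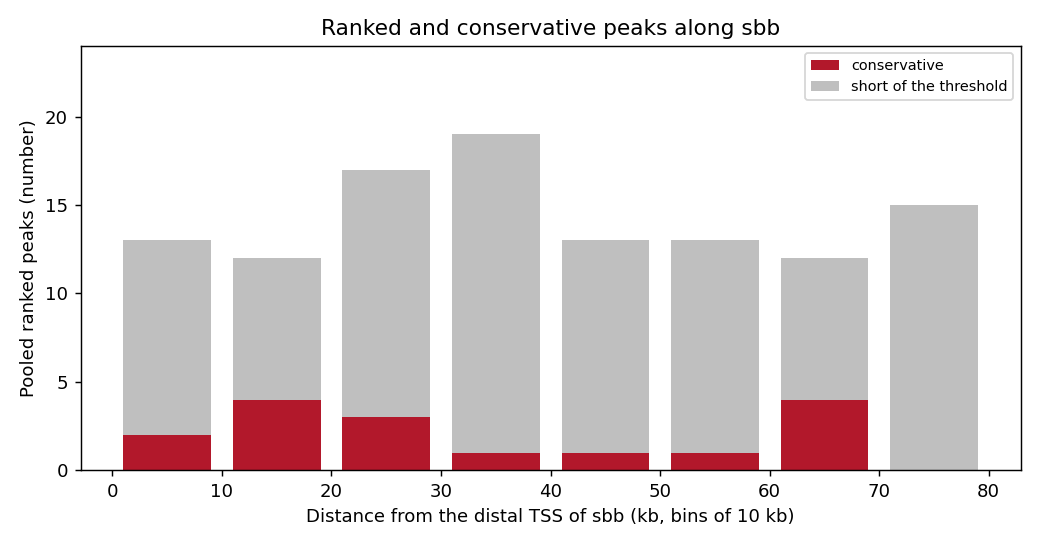
Pooled ranked peaks (vertical axis, number) in bins of 10 kb from the distal TSS of sbb (horizontal axis), split into conservative peaks in red and those short of the threshold in grey. Ranked peaks number 12 to 19 in every bin, and conservative peaks 0 to 4, with peak 1 left out because it lies upstream of the first bin.

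At the threshold the 103 ranked peaks that fell short had a median signal of 28.7. The passing peak with the lowest −log10 IDR was peak 15, at 2.15 with a signal of 73.3. The failing peak with the highest was 1 kb upstream of the distal TSS, at 1.9 with a signal of 58.1. Signal and IDR did not give the same order. The strongest failing peak, with a summit at 18290140 in CG14502, had a pooled signal of 81.3, above all of peaks 14 to 17, but a −log10 IDR of 0.19. It had 13.4 in replicate 1 and 46.4 in replicate 2, where it passed. At the edges of the territory, peak 1 lay 1.9 kb inside the upstream edge and peak 17 lay 12.7 kb inside the other. The nearest conservative summits outside were 18.7 kb beyond the upstream edge, with a signal of 135.6 near lncRNA:CR42736, and 29.9 kb beyond the other edge, with 125.7 near lncRNA:CR44420.

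The longer pooled list differed from the conservative one at 2 peaks each way. It shared 15 of its 17 sbb peaks with the conservative list, or 88.2% of each. It left out peaks 16 and 17, whose −log10 IDR was 2.35 for each in the ranked list of the conservative peaks and 0.63 and 1.95 in the other pooled ranked list. In their place it had the peak at 18290140, where the values were 0.19 and 2.77, and a peak at 18333884, 23.4 kb from the distal TSS, where they were 1.38 and 2.35. The latter had 24.2 in replicate 1 and 45 in replicate 2. The replicates' own lists added 2 positions. Replicate 1 alone passed a peak at 18288014, in an intron below the proximal TSS, with 49.2 against 23.3 in replicate 2. Replicate 2 alone passed a peak at 18305082, 52.2 kb from the distal TSS, with 51.5 against 9.7 in replicate 1. Peaks 1 to 15 stood in both pooled lists.

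The letters that TCF is known to read were found at few of the summits. The TCF core was searched as CTTTG followed by 2 bases that are each A or T, on both strands within 50 bp of each summit. It was present at 2 of 17 summits (11.8%, exact 95% binomial interval 1.46 to 36.4%), against 9.47% of all 6359 conservative summits and 6.57% of 822 adjoining windows of the same width tiled over the sbb territory. Both of these shares lie within the interval for sbb. The matches were CTTTGAA centred 47 bp from the summit of peak 7 and CTTTGTT centred 27 bp from that of peak 8. Both peaks were above the upper quartile by signal, but peak 1, which was stronger, had no match. Within 100 bp of the summit there were 4 of 17, and in the whole listed peak 6 of 17 (35.3%). These wider windows hold more letters, and the share in windows of their width elsewhere was not counted.

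Other motifs were also rare. The helper site that can accompany the TCF core, searched as GCCGCC followed by A or G, was at none of the 17 summits, against 2.31% of the whole list and 4.87% of the tiled windows. The DREF site TATCGATA and the Zelda site CAGGTA were also at none. They stood at 1.54% and 1.82% of the whole list and at 0.243% and 1.7% of the tiled windows. GAGAG, the GAGA factor site, was at peaks 2 and 17, or 11.8%, against 10.9% of the list and 12% of the tiled windows. No searched word contains another, and a missing match says only that these letters are not in the window. The GC content of the bases within 50 bp of the summits ranged from 24.8 to 58.4% with a median of 31.7%, against 33.7% for all conservative summits and 41.7% for the whole territory. The lowest were all in the upstream part of the intron, with 24.8% at peaks 4, 5 and 9 and 26.7% at peaks 7 and 10, and the highest was at peak 2.

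By summits per 10 kb, among the 35 protein-coding genes with 10 or more, sbb was number 12. The 5 genes closest to it were pnt at 2 summits per 10 kb, Smr at 1.92, Tlk at 2.17, nkd at 2.19 and ush at 1.9. pnt encodes an ETS factor at the end of receptor tyrosine kinase signalling, Smr a co-repressor of nuclear receptors, Tlk a chromatin kinase, nkd a feedback antagonist of Wingless and ush a GATA cofactor. Likeness here is density alone, over 1 pooled list. Their median pooled signals were 99.6 for pnt, 84.3 for Smr, 107.8 for Tlk, 104.6 for nkd and 153.4 for ush, all below the 203.1 of sbb. Both replicates passed at 5 of 12 peaks in pnt, 5 of 12 in Smr, 8 of 16 in Tlk, 5 of 10 in nkd and 7 of 13 in ush, against 12 of 17 in sbb. The differences from sbb were not tested. The shares in Tlk, nkd and ush lie within the sbb interval of 44 to 89.7%, and those in pnt and Smr lie below it. The strongest single peak of Tlk, with 702.5 in replicate 1 and 771.1 in replicate 2, exceeded every peak of sbb in each list. That of nkd, with 193.7 in replicate 1, 283.8 in replicate 2 and 480.1 pooled, exceeded every peak of sbb in replicate 2 and in the pooled list.

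Of 11 other co-repressor genes, 7 (63.6%) had at least 1 conservative summit, against the 39.7% of all protein-coding genes given above. Both shares keep genes without ranked peaks, and 10 of the 11 had ranked peaks in their territory. The territories of the 11 had a median of 13 kb, against 6.2 kb for all, so this share is not matched for length. Smr had 12 summits and Gug, which encodes Atrophin, had 5. Mi-2, a chromatin remodeller, had 3, gro, CtBP and ebi had 2 each and HDAC1 had 1. The HDAC1 summit lay outside that gene and inside its neighbour Src64B, 1857 bp from the TSS of HDAC1 and 1255 bp from one of Src64B. The strongest ebi peak lay 214 bp from the TSS of ebi and 76 bp from one of AP-2alpha. Neither peak can be given to the co-repressor gene alone. The strongest peak of Gug had 397.2 in replicate 1 and 382.1 in replicate 2 and lay 7672 bp from its TSS. That of Mi-2 had 279.2 and 308.5 and lay 6926 bp from its TSS. The strongest peak of gro, which encodes Groucho, had 365.6 and 367.5 and lay 130 bp from its TSS. The peaks of Gug and Mi-2 thus lay inside the gene, like peaks 7 to 10 of sbb, and that of gro at the promoter, like peak 1. That of Mi-2 also lay inside the overlapping gene Su(Tpl), while peaks 7 to 10 of sbb lay in no other gene. The genes Sin3A, CoRest, nab and H had 0. For H no ranked peak was listed either, so its 0 is not read as a lack of binding.

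Of the 5 genes listed here as partners or targets of the sbb protein, Gug alone had a conservative summit. This is 20% of the list, against 39.7% of all protein-coding genes, and both shares keep genes without ranked peaks. The list is not complete, as tkv, the Thickveins gene named above as held down by sbb, was left out of it. In its territory of 56.4 kb tkv had 6 conservative summits. The passing list of replicate 1 had 3 there and that of replicate 2 had 4. The nuclear receptor gene tll, the transcription factor gene run, and the gap genes Kr and kni had 0. Their territories were short, at 6.1, 10.7, 8.8 and 7 kb. For kni the longer pooled list had 1 summit. For Kr no ranked peak was listed, so its 0 is not read as a lack of binding.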

How the data were processed

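The 8 deposited peak lists are on dm6, per the file headers: a ranked and a passing list for each of 2 replicates, and 2 of each for the pooled reads. The aligner and the peak caller are not given in the sources used here. Per the file headers the authors thresholded the passing lists on IDR, and each deposited peak carries a signal, a summit offset and a −log10 q; ranked lists also hold the authors' −log10 global IDR. Positions came from the Ensembl release 115 annotation of the same assembly, and bases from RefSeq's copy of it. Summits were assigned to the gene body plus 2 kb either side. A conservative peak was matched to a replicate's peak where they overlapped by 50% of the shorter. Scripts (Python 3.11.15, pandas 2.3.3, scipy 1.17.1) were tested on simulated data. No read depth is known, and no test was run. Besides sbb, the genes named were those overlapping its territory, the co-repressor and partner lists, and the 5 genes with 10 or more summits closest in density. Members, lists and motifs were chosen with earlier results of these data known. The counts of CG1677 and tkv and the 4 stretches fall outside that rule and were named after their values were seen. So were Src64B, AP-2alpha and Su(Tpl), which lie beside or overlap genes of the co-repressor list.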

Additional observations from a re-analysis of the deposited data

How the results depend on the processing

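The 6 summary values of sbb were recomputed under 28 alternative settings. All 28 stayed within 1.5 times the reported count or density, within the 95% interval of the reported share, or at the reported median signal. The median signal was recomputed in the longer list only. There it could not move, because both lists hold 17 sbb peaks and differ only in peaks weaker than the median. The number of summits ran from 13 to 17: 16 in the gene body alone or with overlapping peaks merged, and 13 among peaks at or above the list's median signal. The passing list of replicate 2 alone gave 17 and that of replicate 1 alone gave 13. The pooled list was not made again without a replicate. The 17 of replicate 2 are not the same set, as peaks 14 to 16 did not pass there. The density ran from 1.56 to 2.05 per 10 kb. The share in both replicates was 70.6% under each overlap rule tried. With 17 peaks the intervals are wide, so shares moved by more than 1.5 times without leaving them. The share near a TSS was 17.6 to 35.3%. The share with the TCF core was 7.69% in the passing list of replicate 1, 17.6% in that of replicate 2 and 35.3% over whole peaks. No paired analysis was possible because there was 1 group. Read depth, which limits how weak a peak can be called, is unknown.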
